A study of Homo sapiens with 8 samples.

Results

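The angiopoietin and TIE receptor genes were examined in hCMEC/D3, a single immortalised clone derived from human brain capillary endothelium that is grown to model the blood-brain barrier in culture. The 7 genes were taken by symbol from a table of 23346 genes: the receptor genes TEK and TIE1, the ligand genes ANGPT1 and ANGPT2, the phosphatase gene PTPRB, and ANGPTL2 and ANGPTL4 of the angiopoietin-like family. Polyadenylated RNA of 8 replicates of the line was sequenced. The labels name no treatment, genotype or time point, and all libraries formed 1 group, so no condition was compared. The labels did not say whether the replicates were separate cultures, so p-values measure only the spread between these libraries, which may be technical.

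TEK encodes TIE2, the receptor tyrosine kinase that binds angiopoietins on endothelial cells. Angiopoietin-1, which comes mainly from pericytes and other mural cells, activates TIE2, and the signal through AKT restrains the transcription factor FOXO1 and keeps vessels quiescent and tight. Angiopoietin-2 is made by the endothelium itself, is stored in Weibel-Palade bodies and can block or weakly activate the same receptor. TIE1 has no known high-affinity angiopoietin and acts together with TIE2, and PTPRB (VE-PTP) removes phosphate from TIE2 and associates with VE-cadherin. The angiopoietin-like proteins share the fold of the angiopoietins but do not bind TIE2: ANGPTL4 inhibits lipoprotein lipase, and ANGPTL2 is a secreted factor linked to inflammation.

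Total counts were 69388544 to 90205244 per library. Each of the 186768 values was an even number, and counting error is given on halved counts, called read pairs. Levels within a gene are given as CPM (counts scaled to library size by TMM and set to a common total), and levels between genes as RPKM (CPM per kilobase of the annotated canonical transcript). A gene was called detected at 1 CPM or more in all 8 libraries. The authors' own CQN values (conditional quantile normalisation, log2), a scale built to take out length and GC effects within a library, were set beside both. The endothelial identity of the libraries was checked on 10 markers, of which 10 were detected, with summed levels of 3240 to 5278 CPM, led by MCAM (1096 ± 57.1 CPM), ENG (690 ± 260.4) and CDH5. Among them CLDN5, the tight junction gene, varied more between libraries than genes of its abundance (adjusted p = 7.36e-04 in edgeR). It had 237 and 252 CPM in replicates 2 and 8 and 71.5 to 94.7 CPM in the other 6. By CQN replicates 2 and 8 were also highest, but closer to the rest (9.07 and 9.04, against 7.86 to 8.63 in the other 6). Of the 8 mural markers 5 were detected (summed level 163 to 189 CPM): ANPEP at 115 CPM, CSPG4 at 32.9, RGS5 at 14.4, PDGFRB at 9.57 and ACTA2 at 4.74 CPM. The mural genes KCNJ8, DES and NOTCH3 averaged 0.0272, 0.180 and 0.508 CPM. Of 4 lymphatic, 4 haematopoietic and 4 adipocyte markers, 1, 1 and 0 were detected (FLT4 and CD68), with summed levels of 3.55 to 7.25, 47.4 to 84.8 and 0.681 to 0.910 CPM.

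Libraries differed in how counts depended on transcript length and GC content. Over 11636 detected genes with a length, the slope of the deviation from the gene's mean per doubling of length was 0.09 to 0.15 (log2) in replicates 1, 3, 4, 5 and 6, and -0.23, -0.11 and -0.34 in replicates 2, 7 and 8. Per 10 percentage points of GC content it was -0.19 to -0.10 in the former and 0.29, 0.10 and 0.37 in the latter. For the CQN values these slopes lay between -0.03 and 0.02. The part of length and GC content in the differences between libraries given here was not tested. Of 11980 detected genes, 58.2% did not overlap on the CPM scale between replicates 2, 7 and 8 and the other 5 libraries, and 31.8% did not on the CQN values. The genes higher in those 3 libraries were 30.9% by CPM and 17.3% by CQN.

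Both receptors and the phosphatase were expressed, ANGPT2 was the main angiopoietin, and ANGPT1 was low, near the 1 CPM set here for calling a gene detected. Of the 7 genes 6 were detected, against 51.3% of all genes in the table. From the highest to the lowest mean RPKM the order was ANGPTL4 (146 ± 46.9, SD, n = 8), TIE1 (65.9 ± 16.0), TEK (19.6 ± 4.88), ANGPTL2 (13.5 ± 1.70), PTPRB (6.43 ± 2.14), ANGPT2 (5.07 ± 0.920) and ANGPT1 (0.255 ± 0.0545). The median over the 11636 detected genes with a length was 11.4 RPKM. In bulk RNA, fewer expressing cells and less RNA per cell cannot be told apart.

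**Figure D1:**
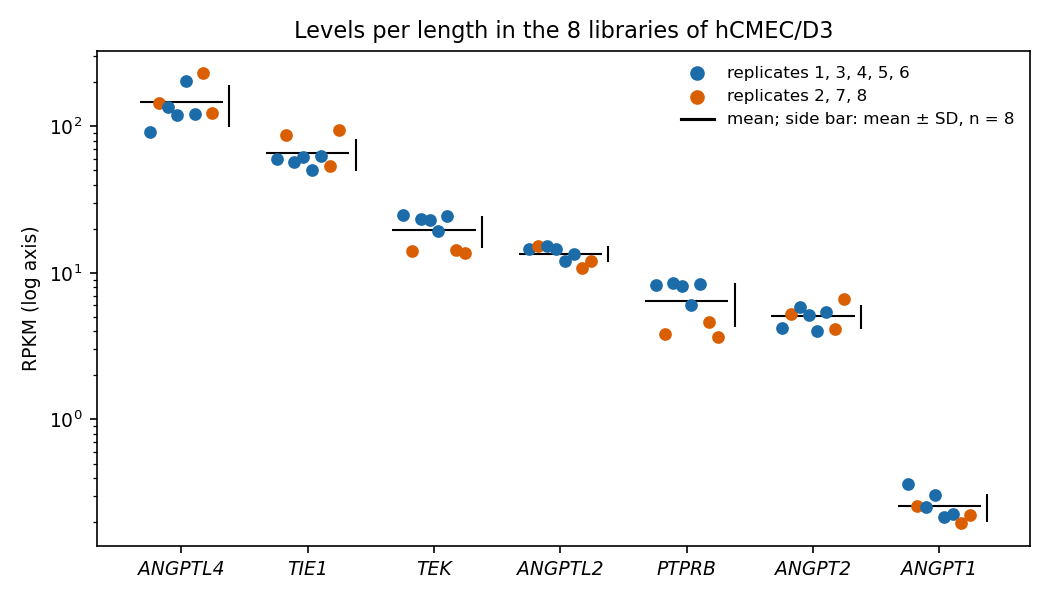
RPKM of the 7 genes in each of the 8 libraries on a log axis. Points are libraries (replicates 2, 7 and 8 in orange, the other 5 in blue), horizontal lines are means, and the bar beside each group spans the mean ± SD (n = 8). ANGPTL4 and TIE1 lie at the top and ANGPT1 lies below all other points. In TEK and PTPRB the points of replicates 2, 7 and 8 lie below the other 5.

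The order was tested on the difference of log2(RPKM + 0.01) within each library, by an exact permutation test that flips the signs of the 8 differences in every way (two-sided). All 21 pairs of the 7 genes were compared, and p-values were adjusted over them by Benjamini-Hochberg. Of the 21 pairs, 20 had an adjusted p under 0.05, and 19 had the same order in 8 of 8 libraries. With 8 libraries the smallest p this test can give is 0.00781, and the 19 pairs had that value (adjusted p = 0.00863, exact permutation test). The exceptions were neighbours in the order. TEK exceeded ANGPTL2 by 0.50 ± 0.33 (SD), in 7 of 8 libraries (exact permutation p = 0.0156, adjusted p = 0.0164, n = 8), with replicate 2 reversed at -0.12. This difference was 0.64 ± 0.12 on the CQN values and positive in 8 of 8. PTPRB and ANGPT2 differed by 0.28 ± 0.63, in 6 of 8 libraries (exact permutation p = 0.242, adjusted p = 0.242, n = 8), so their order was not resolved per length.

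The order of PTPRB and its neighbours changed with the scale. On the CQN values PTPRB exceeded ANGPT2 by 1.15 ± 0.46 in 8 of 8 libraries (exact permutation p = 0.00781, adjusted p = 0.00863, n = 8). Without replicate 8 the RPKM difference was 0.45 (adjusted p = 0.0469, exact permutation test), and without replicates 2, 7 and 8 it was 0.68. ANGPTL2 exceeded PTPRB by 1.14 ± 0.47 on the RPKM scale in 8 of 8 libraries, but by 0.19 ± 0.23 in 6 of 8 on the CQN values (exact permutation p = 0.0703, adjusted p = 0.0703, n = 8). PTPRB has the longest transcript of the 7 genes, at 12301 nt, longer than in 98.1% of detected genes.

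The receptor genes came first in the pathway. TEK (chromosome 9, 27109147 to 27230172, plus strand, 23 exons, hg19) ranged from 64.1 CPM in replicate 8 to 115 CPM in replicate 1, with a median of 98.9 CPM. It had 64.1 to 67.3 CPM in replicates 2, 7 and 8 and 90.3 to 115 CPM in the other 5, without overlap, as 27.3% of all detected genes were lower in these 3 libraries. By CQN the same libraries had 6.44 to 6.63 and 6.65 to 6.98, again without overlap, where 14.5% of detected genes were lower in this way. TIE1 (chromosome 1, 43766566 to 43788781, plus strand, 23 exons) ranged from 195 CPM in replicate 5 to 367 CPM in replicate 8, with a median of 237 CPM. Its values were highest in replicates 8 and 2 (367 and 339 CPM), and the others reached at most 244 CPM. Replicates 8 and 2 were still highest on the CQN values (8.74 and 8.67), but the next library, replicate 6, had 8.61.

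TIE1 exceeded TEK per length in every library. The mean difference was 1.76 ± 0.62 on the log2 RPKM scale, which is 3.38-fold. The fold was 2.43 to 2.70 in replicates 1, 3, 4, 5 and 6, 3.72 in replicate 7, 6.21 in replicate 2 and 6.89 in replicate 8. On the CQN values the mean difference was the same (1.76), but its SD was 0.21 and its range 1.59 to 2.11, with replicates 2 and 8 still highest. The size changed with the length used: with the union of all annotated exons (6705 nt for TIE1 and 4804 nt for TEK) the difference was 1.01. The transcripts have 3893 nt for TIE1 and 4683 nt for TEK, and GC contents of 60.8% and 45.1%. The part of length or GC content in the spread of this difference was not tested.

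**Figure D2:**
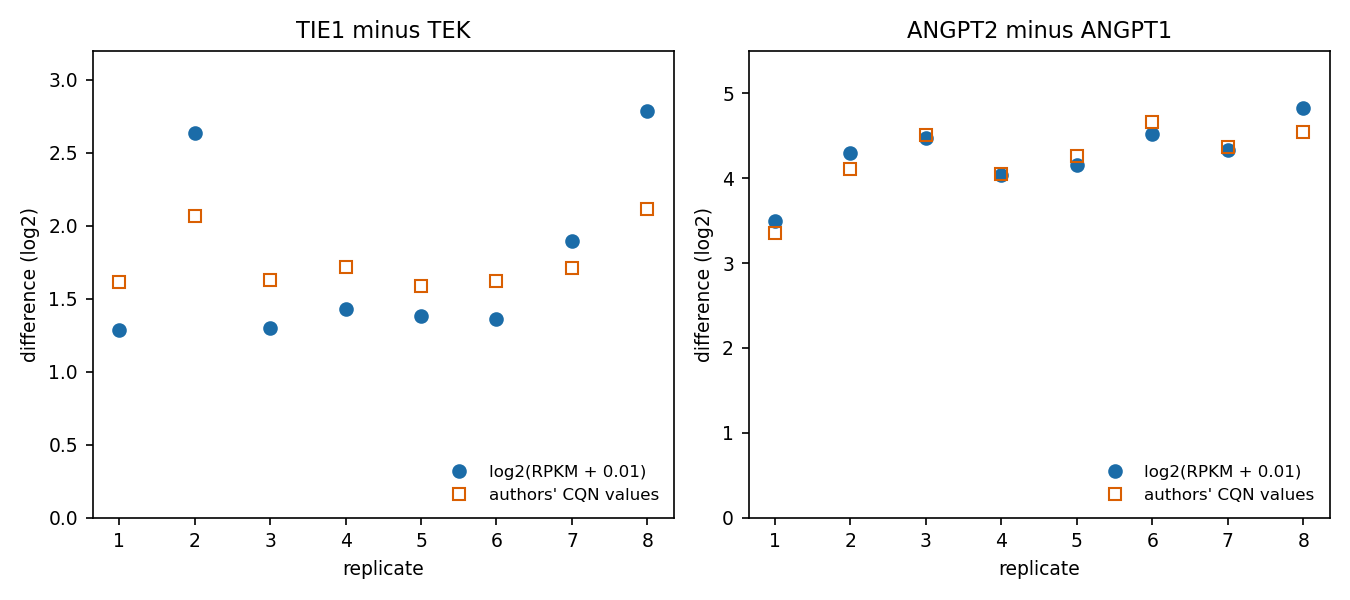
Within-library difference (log2) of TIE1 and TEK, left, and of ANGPT2 and ANGPT1, right, in each replicate. Filled circles are log2(RPKM + 0.01) and open squares the authors' CQN values. For TIE1 and TEK, replicates 2 and 8 stand above the others on both scales, and the range is narrower on the CQN values. All differences are above 0.

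The sequences before the starts of both receptor genes and of ANGPTL4, the highest and most variable ligand-like gene, are shown as a description. The GC slopes of the libraries refer to transcripts, not to these bases. The transcripts have a GC content of 45.1% (TEK), 60.8% (TIE1) and 63.3% (ANGPTL4). They are the 250 bases upstream of the RefSeq start in GRCh38.p14, a build other than that of the table, and capitals mark GGAA or its reverse complement TTCC, the core bound by ETS factors such as ERG.
TEK, chr9:27108975-27109224, plus strand: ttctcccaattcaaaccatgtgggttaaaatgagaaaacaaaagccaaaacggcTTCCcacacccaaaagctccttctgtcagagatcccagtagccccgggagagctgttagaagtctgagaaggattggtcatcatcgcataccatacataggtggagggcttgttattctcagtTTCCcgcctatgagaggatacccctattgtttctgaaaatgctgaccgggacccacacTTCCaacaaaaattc
TIE1, chr1:43300732-43300981, plus strand: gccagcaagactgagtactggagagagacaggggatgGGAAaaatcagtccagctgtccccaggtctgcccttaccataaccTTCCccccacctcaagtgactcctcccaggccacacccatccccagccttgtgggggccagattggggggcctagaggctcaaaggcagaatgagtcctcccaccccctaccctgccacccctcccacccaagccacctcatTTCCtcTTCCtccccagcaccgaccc
ANGPTL4, chr19:8363905-8364154, plus strand: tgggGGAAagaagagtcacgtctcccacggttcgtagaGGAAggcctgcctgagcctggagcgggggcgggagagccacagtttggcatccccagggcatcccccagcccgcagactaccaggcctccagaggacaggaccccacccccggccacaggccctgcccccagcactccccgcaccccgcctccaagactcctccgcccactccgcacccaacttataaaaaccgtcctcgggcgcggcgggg
For TEK the more upstream of 2 listed starts is shown. Entries were used for 4 of the 7 genes, and the ANGPTL2 window, not shown, had a GC content of 68.4% and 1 match. The TEK, TIE1 and ANGPTL4 windows held 3, 4 and 2 matches on both strands. Such matches are common: of 35116 windows of the same length, 55.1%, 34.3% and 76.5% held at least as many. The ETS factor gene ERG, among the endothelial markers, had 166 ± 20.5 CPM (SD, n = 8). GC content was 46.4% for TEK, 61.6% for TIE1 and 68.8% for ANGPTL4, against a median of 58.0% over all windows. The ANGPTL4 window held 1 TATAAA and 1 ACGTG (both strands searched, 10.7% and 18.5% of all windows), and the windows of TEK and TIE1 held 0 of either. A match describes letters only and shows no binding.

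The ligand genes differed by more than an order of magnitude. ANGPT2 (chromosome 8, 6357175 to 6420784, minus strand, 9 exons) ranged from 21.1 CPM in replicate 5 to 34.8 CPM in replicate 8, with a median of 27.5 CPM. ANGPT1 (chromosome 8, 108261710 to 108510254, minus strand, 9 exons) ranged from 0.828 CPM in replicate 7 to 1.53 CPM in replicate 1, with a median of 1.01 CPM. It was therefore under 1 CPM in 4 libraries and not called detected, although 34 to 52 read pairs were counted in each. The exact Poisson 95% interval included 1 CPM in 7 libraries and was 1.14 to 2.00 CPM in replicate 1. Only counting error is covered by these intervals, because PCR copies of 1 molecule could not be told apart.

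Per length ANGPT2 exceeded ANGPT1 in 8 of 8 libraries, by 4.27 ± 0.39 on the log2 RPKM scale, or 19.3-fold. The fold ranged from 11.3 in replicate 1 to 28.3 in replicate 8. The CQN values gave 4.23 ± 0.41, and a pseudocount of 1 in place of 0.01 lowered the difference to 2.26. TEK exceeded ANGPT2 by 1.93 ± 0.49, which is 3.80-fold. ANGPT2 lies within MCPH1 on the opposite strand and shares 658 of its 6794 annotated exon bases with it. MCPH1 had 33.2 ± 5.26 CPM (SD, n = 8), and whether the authors' counting used strand was not given in the sources used here, so the ANGPT2 level is uncertain to that extent.

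PTPRB (chromosome 12, 70910632 to 71031220, minus strand, 34 exons) ranged from 44.8 CPM in replicate 8 to 104 CPM in replicate 3, with a median of 87.6 CPM. It had 44.8 to 57.2 CPM in replicates 2, 7 and 8 and 74.6 to 104 CPM in the other 5, without overlap, like the 27.3% of detected genes that were lower there. TEK and PTPRB were the 2 of the 6 detected genes of the axis that separated these libraries on the CPM scale, against 58.2% of all detected genes in either direction. Those libraries had 5.89 to 6.04 and 5.68 to 6.02 on the CQN values and overlapped. TEK exceeded PTPRB per length by 1.64 ± 0.17, or 3.12-fold, in 8 of 8 libraries, and by 0.82 ± 0.19 on the CQN values. In annotation, 1040 and 264 of the 14538 PTPRB exon bases are shared with 2 long noncoding genes on the opposite strand, which are not in the table.

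The angiopoietin-like genes behaved differently from each other. ANGPTL4 (chromosome 19, 8429011 to 8439257, plus strand, 7 exons, 1872 nt) ranged from 170 CPM in replicate 1 to 431 CPM in replicate 7, with a median of 242 CPM. Replicates 7 and 5 (431 and 381 CPM) stood above the others, which reached at most 270.4 CPM. Replicates 5 and 7 were again highest by CQN (10.07 and 9.83), and replicate 8 was lowest (8.40). ANGPTL2 (chromosome 9, 129849628 to 129885044, minus strand, 5 exons) had the smallest spread of the 7 genes on the CPM scale, from 37.2 CPM in replicate 7 to 52.8 CPM in replicate 3, with a median of 48.2 CPM. Its CQN values ran from 5.78 to 6.38 in the same replicates. It lies within RALGPS1 on the opposite strand (3.73 ± 0.659 CPM) and shares 0 exon bases with it. ANGPTL4 exceeded ANGPTL2 per length by 3.38 ± 0.58 in 8 of 8 libraries, or 10.4-fold. It exceeded TIE1, the next gene in the order, by 1.12 ± 0.64 in 8 of 8, and on the CQN values by 0.83 ± 0.72 in 7 of 8, with replicate 8 at -0.35.

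The genes that spread most between libraries were not the same on both scales. On log2(CPM + 0.1), the SD was 0.53 for PTPRB, 0.44 for ANGPTL4, 0.38 for TEK, 0.33 for TIE1, 0.26 for ANGPT2 and 0.19 for ANGPTL2, against a median of 0.28 over 11980 detected genes. On the CQN values it was 0.11 for PTPRB, 0.54 for ANGPTL4, 0.19 for TEK, 0.21 for TIE1, 0.50 for ANGPT2 and 0.22 for ANGPTL2, against a median of 0.16. PTPRB thus passed from above 89.9% of detected genes on the CPM scale to above 26.1% on the CQN values, and ANGPT2 from 46.5% to 95.9%. ANGPTL4 was high on both, above 80.3% and 97.0%. The CQN values of ANGPT2 were highest in replicates 8 and 2 (5.75 and 5.26), and the other 6 libraries had 4.24 to 4.70.

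**Figure D3:**
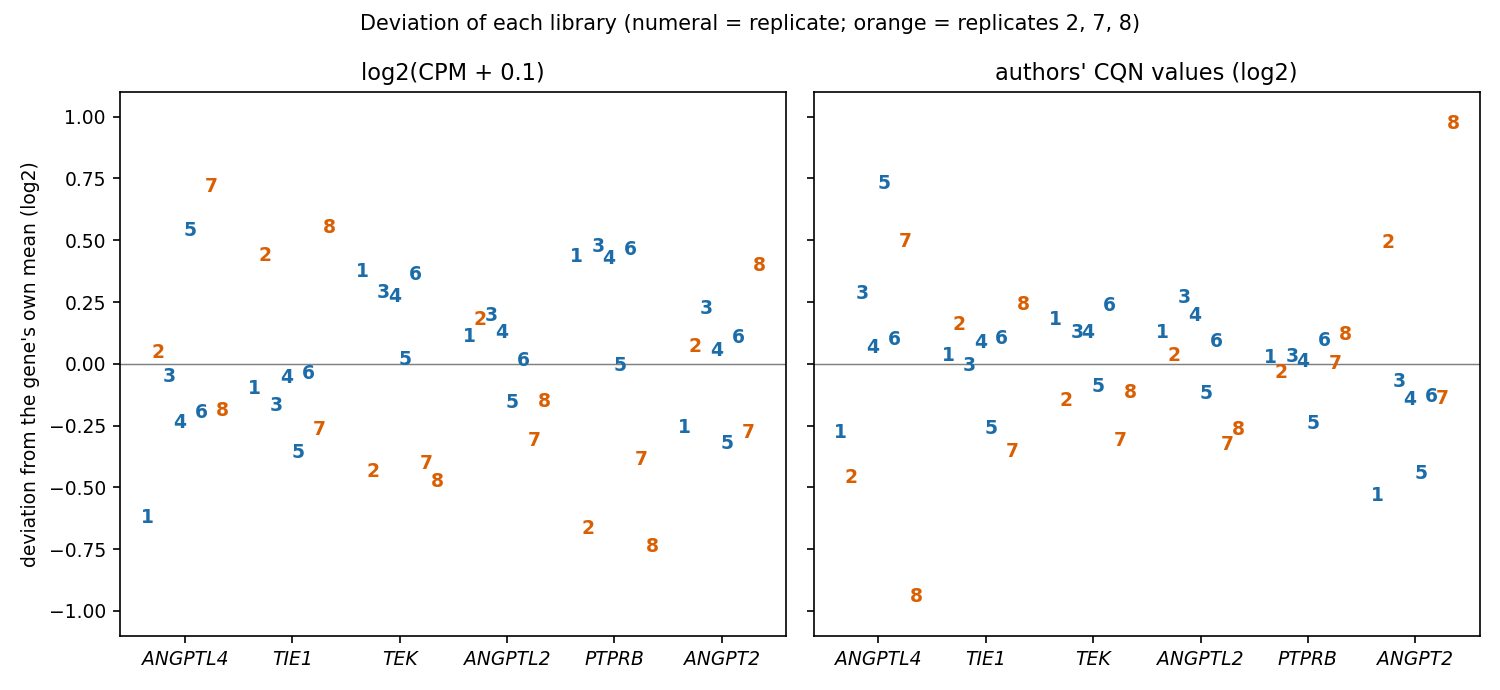
Deviation of each library from the gene's own mean (log2) for the 6 detected genes, on log2(CPM + 0.1), left, and on the authors' CQN values, right. Numerals are replicate numbers, with replicates 2, 7 and 8 in orange. PTPRB spreads from -0.74 to 0.48 on the left and from -0.24 to 0.12 on the right, whereas ANGPT2 spreads more on the right, where replicate 8 lies at 0.97.

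Whether these spreads exceeded those of genes of the same abundance was tested over 11980 detected genes in edgeR, with a goodness-of-fit statistic computed at the trended dispersion. None of the 6 detected genes passed an adjusted p of 0.05, where 4.66% of all genes did. PTPRB had the smallest unadjusted p (0.0245, adjusted p = 0.243 in edgeR) and was the only 1 of the 6 with an unadjusted p under 0.05, where 13.1% of all genes had one. Its deviance per degree of freedom was 2.30, followed by ANGPTL4 with 1.76 (unadjusted p = 0.0899, adjusted p = 0.545 in edgeR). TEK, TIE1, ANGPT2 and ANGPTL2 had 1.21, 0.992, 0.554 and 0.296. With the trend fitted by DESeq2, 23.5% of all genes passed, and so did 2 of the 6, PTPRB (adjusted p = 8.83e-04) and ANGPTL4 (adjusted p = 0.00862).

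Leaving out replicates 2, 7 and 8 lowered the trend and changed the call for ANGPTL4. Among the other 5 libraries 2.42% of 12275 genes passed in edgeR, and ANGPTL4 was 1 of them, with a deviance per degree of freedom of 15.3 (adjusted p = 5.99e-10 in edgeR). The biological coefficient of variation of the trend at its abundance was 7.62% in these 5 libraries and 23.2% in all 8. Its values there were 170, 253, 222, 381 and 228 CPM in replicates 1, 3, 4, 5 and 6, and 9.06, 9.62, 9.40, 10.07 and 9.43 by CQN. The adjusted p of PTPRB in this fit was 0.176, and that of ANGPT2 was 0.155. The 5 libraries were selected from earlier results on the same data, so the call describes them only.

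The genes around the receptors were described by 8 lists. Over the lists 71 of 95 genes (74.7%) were detected, against 51.3% of all genes in the table, and 6 of these 71 (8.45%) varied more than the trend, against 4.66% of all detected genes. Of 25 TIE2 adaptor and signalling genes 23 were detected. The median over all 25, detected or not, was 15.2 RPKM, where all genes with a length had a median of 1.39. Those with the highest CPM were RHOA, a GTPase of the cytoskeleton (917 ± 58.6 CPM), the scaffold IQGAP1 (581 ± 196) and the adaptor SHC1 (391 ± 21.1). DOK2, an adaptor known to bind TIE2, was at 0 in 5 libraries and had at most 0.0710 CPM, and the exchange factor gene VAV3 had 0.555 ± 0.160 CPM. None of the 23 varied more than the trend in edgeR, where 4.66% of all detected genes did. In the same test 3 of the 23 had an unadjusted p under 0.05, where 13.1% of all detected genes had one.

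Of 9 FOXO factors and FOXO1 targets 8 were detected (median over all 9: 16.1 RPKM). APLN, the apelin ligand, had 136 ± 27.1 CPM, the mural cell growth factor PDGFB 122 ± 28.0 CPM and the cell cycle gene CCND1 68.3 ± 27.4 CPM. CCND1 passed the test for variation above the trend (adjusted p = 0.0240 in edgeR), with 30.8 and 34.5 CPM in replicates 2 and 8 and 101 and 98.4 CPM in replicates 7 and 5, and replicates 2 and 8 were lowest by CQN as well (5.38 and 5.63, highest 7.06). NOS3, the endothelial nitric oxide synthase, was not detected (0.920 ± 0.237 CPM). FOXO1 itself, named here beyond the rule for named genes, had 54.9 ± 9.99 CPM.

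Of 13 genes for receptor shedding and binding partners 12 were detected (median over all 13: 26.1 RPKM). ITGB1 and ITGA5, which together form the fibronectin receptor that angiopoietins can also bind, had 1515 ± 350 and 1349 ± 132 CPM, and CDH5, the VE-cadherin gene, had 649 ± 152 CPM. The sheddase gene ADAM10 (adjusted p = 0.00881), the integrin gene ITGAV (adjusted p = 0.00142) and SVEP1, a matrix protein known to bind TIE1 (adjusted p = 0.0212), varied more than the trend in edgeR. All 3 were lowest in replicate 8 and next lowest in replicate 2: 50.3 and 74.6 CPM for ADAM10, 159 and 164 CPM for ITGAV and 22.8 and 30.5 CPM for SVEP1. Their highest values were 191, 611 and 84.8 CPM. In replicates 2, 7 and 8 each was lower than in the other 5 libraries, without overlap, as were 27.3% of all detected genes. The part of transcript length in this was not tested. On the CQN values ADAM10 (6.38 to 7.83) and SVEP1 (5.02 to 5.84) were lowest in replicate 8 as well, and ITGAV (7.67 to 8.83) in replicate 2. MMP9 was not detected (0.141 ± 0.0640 CPM).

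No other ligand of the family reached detection. ANGPT4, the remaining angiopoietin, and the 6 further angiopoietin-like genes gave 0 of 7 detected and a median of 0.0996 RPKM. The highest were ANGPTL1 (0.674 ± 0.139 CPM), ANGPTL8, listed under its older symbol (0.344 ± 0.117 CPM), and ANGPTL6 (0.326 ± 0.0612 CPM). Among 4 receptor phosphatases of the PTPRB subtype, PTPRJ (82.0 ± 17.6 CPM) and PTPRH (3.26 ± 0.459 CPM) were detected, and PTPRQ (0.635 ± 0.321 CPM) and PTPRO (0.115 ± 0.0433 CPM) were not.

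Of 21 genes of lipase control and of PPAR or hypoxia response known with ANGPTL4, 14 were detected (median over all 21: 3.90 RPKM). EPAS1, the endothelial hypoxia-inducible factor, had 1516 ± 238 CPM, the fatty acid oxidation gene CPT1A 208 ± 10.8 CPM and HIF1A 199.5 ± 83.5 CPM. HIF1A (adjusted p = 0.00262) and LIPG, endothelial lipase (38.2 ± 14.4 CPM, adjusted p = 0.0181), varied more than the trend in edgeR. HIF1A had 65.2 CPM in replicate 8, 105 in replicate 2, 137 in replicate 7 and 233 to 269 CPM in the other 5. Of all detected genes, 27.3% were likewise lower in replicates 2, 7 and 8 without overlap. LIPG had 14.1 and 17.4 CPM in replicates 2 and 8 and 38.4 to 52.4 CPM elsewhere. By CQN, too, HIF1A (6.69 to 8.13) was lowest in replicate 8 and LIPG (4.43 to 6.20) in replicate 2.

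Of 9 tip cell genes known with ANGPT2, 6 were detected (median over all 9: 2.27 RPKM). They were led by the basement membrane genes NID1 (395 ± 83.7 CPM) and NID2 (95.1 ± 33.7) and the growth factor PGF (145 ± 46.2). CXCR4, KCNE3 and EGR2 were not detected (0.624, 0.815 and 0.539 CPM). Of 7 storage granule genes 6 were detected (median over all 7: 16.1 RPKM). VWF had 600.4 ± 206 CPM, CD63 539.9 ± 145 CPM and EDN1, endothelin-1, 476 ± 141 CPM. SELP, the gene of P-selectin, which is also held in Weibel-Palade bodies, had 0.0520 ± 0.0538 CPM and was at 0 in 2 libraries. None of the tip cell and storage granule genes varied more than the trend in edgeR, where 4.66% of all detected genes did. In each list 1 gene had an unadjusted p under 0.05 in this test, where 13.1% of all detected genes had one.

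**Figure D4:**
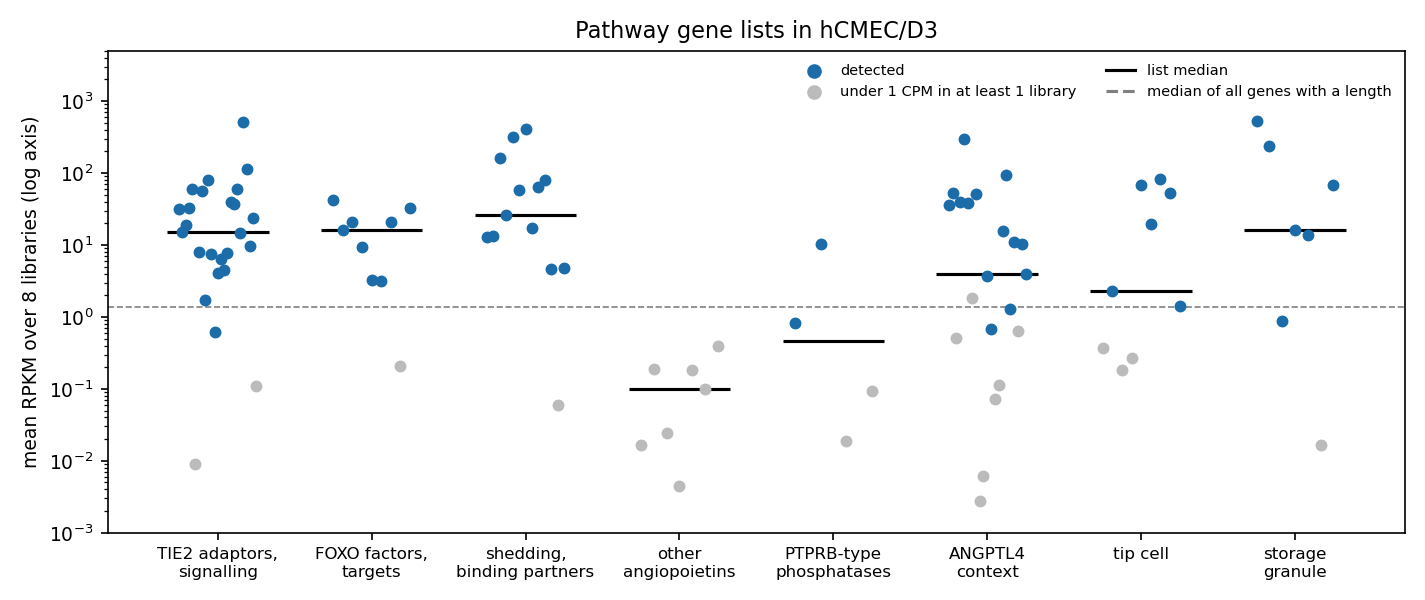
Mean RPKM over the 8 libraries of each gene in 8 pathway lists, on a log axis. Blue points are detected genes, grey points had under 1 CPM in at least 1 library, black lines are list medians, and the dashed line is the median of all genes with a length (1.39 RPKM). All 7 points of the other angiopoietins lie below the dashed line.

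The genes whose CQN values followed each detected gene most closely over the 8 libraries were named by Pearson's r among 11979 other detected genes, as a description. For ANGPTL4 they included MTHFD2 (r = 0.990, Spearman's rho = 0.976), a mitochondrial folate enzyme, and TSSC4 (0.986 and 0.929). For ANGPT2 they were PCGF3 (0.992 and 0.762), TAF1C (0.989 and 0.881) and ARMCX6 (0.986 and 0.952). For TIE1 they were S100A16 (0.989 and 0.976), TSC22D4 (0.987 and 0.929) and PROCR (0.986 and 0.976), the endothelial protein C receptor. For TEK they were RPRD1A (0.990 and 0.905), the junction gene CGNL1 (0.987 and 0.976) and LMBR1 (0.987 and 0.976). For ANGPTL2 they were CENPA (0.972 and 0.976), DUSP6 (0.972 and 0.952) and G2E3 (0.970 and 0.994). For PTPRB they were ERBB3 (0.949 and 0.905), KLHL6 (0.926 and 0.667) and CALHM2 (0.923 and 0.905). All pairs share the same 8 libraries. The number of genes that reached an r of 0.9 was 472 (3.94%) for ANGPT2, 372 for ANGPTL4, 213 for TIE1, 157 for TEK, 67 for ANGPTL2 and 10 (0.0835%) for PTPRB.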

How the data were processed

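Per the labels' protocols, polyadenylated RNA was made into libraries with Illumina's TruSeq kit (v2). The submitters' processing notes name CASAVA 1.9, TopHat2 2.0.6, HTSeq and the build hg19. The authors deposited 1 table with raw counts and CQN-normalised values for 8 libraries, per the file headers. The deposited count values carry no normalisation and sum to 69388544 to 90205244 per library. The authors' CQN values are on a log2 scale, judged from the values, and exist for 13962 of 23346 genes. Strand use, annotation and CQN settings were not given in the sources used here. Columns were assigned by the replicate number in their names, with 0 columns of other samples.

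CPM used TMM-scaled library sizes (edgeR 4.0.16, R 4.3.3; DESeq2 1.42.0 for alternatives). Lengths came from the canonical transcript in GENCODE 44 lifted to GRCh37, or the longest where no transcript was tagged (1525 genes). Of 23346 genes 21456 had a length (19467 matched by symbol, 1989 by RefSeq synonym), including 97.1% of detected genes. Table starts were 1 less than annotated for 6211 genes and equal for 710, so they were read as counted from 0 and are printed 1-based. The goodness-of-fit test was an intercept-only edgeR fit with Benjamini-Hochberg adjustment over all detected genes. It was tried on counts simulated at the fitted trended dispersion. These held no length or GC shifts between libraries, so the trial does not cover such shifts. Upstream sequences are from RefSeq.

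The genes and lists were chosen with earlier results of these data known. Genes named beyond the 7 were mainly those whose span overlaps one of them, the 3 of each list with the highest mean CPM, those above the variation trend, undetected ones where 5 or fewer, and the 3 most alike by Pearson's r, of which 1 gene is not reported here. Only some of the marker genes are named; FOXO1, ERG, PDGFRB, ACTA2, GPIHBP1 and LPL were chosen after their values were seen. The alternatives tried were other scaling, filters, trends, lengths and pseudocounts, halved counts and left-out libraries.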

Additional observations from a re-analysis of the deposited data

Results flagged for a closer look

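In 114 sets of 8 values (the 7 genes of the axis and the genes named from the pathway and marker lists, on the CPM scale and, where given, on the CQN values), 7 had a highest or lowest library farther from its neighbour, relative to the whole range, than Dixon's 95% limit, where chance gives about 1 in 20. Among the 7 genes of the axis this was PTPRB alone, on the CQN values: 5.68 in replicate 5 against 5.89 for the next lowest and 6.04 for the highest library. On the CPM scale PTPRB was not set apart in this way. The others were CDH5 at 994 CPM in replicate 2 (next 666 CPM), ENG at 1275 CPM in replicate 8 (next 804 CPM), ITGA5 at 1637 CPM in replicate 7 (next 1392 CPM) and PDGFB with a CQN value of 8.28 in replicate 6 (next 7.64). DOK2 at 0.0710 CPM in replicate 8 rests on 3 read pairs and LYVE1 at 0.0244 CPM in replicate 7 on 1.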

How the results depend on the processing

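The number of genes detected was 6 of 7 under all scalings and without replicates 2, 7 and 8, and 7 with a minimum of 10 counts in every library. The number above the variation trend was 0 with every other filter, with DESeq2 size factors, with halved counts and without each library in turn, 2 with the DESeq2 trend and 1 without replicates 2, 7 and 8. Over all genes the number was 558, 2811 with the DESeq2 trend and 297 without replicates 2, 7 and 8, and 381 to 491 without each library in turn. Of the 21 pairs, 20 differed under each planned setting with a test, except 21 without replicate 8. On the CQN values the 20 were not the same pairs: ANGPTL2 against PTPRB was lost (0.19) and PTPRB against ANGPT2 gained (1.15, and 0.45 without replicate 8). No pair reversed. With 5 libraries the exact test cannot go below 0.0625, so those pairs were given as values. Mean CPM moved by less than 1 SD for each of the 7 genes under every scaling and without replicates 2, 7 and 8. No paired comparison of conditions was possible because the libraries form 1 group. Depth limits only ANGPT1 (34 to 52 read pairs, a counting error of 15.7% on average) and the undetected list genes, where the upper limit for a count of 0 (3 read pairs) was 0.0665 to 0.0880 CPM by library.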

Other observations

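GPIHBP1, which anchors lipoprotein lipase on capillary endothelium, was chosen from the ANGPTL4 list after its values were seen. It had 10.1 and 10.8 CPM in replicates 2 and 8 and 0.881 to 3.50 CPM in the other 6, a division read from these values. Replicate 7 lay within the range of the others. Its CQN values were 4.03 and 3.97 in replicates 2 and 8 and 1.18 to 3.14 in the others. It was not detected by the rule, because replicate 5 lay under 1 CPM, and was therefore not tested against the variation trend. Lipoprotein lipase itself (LPL) had 0.254 ± 0.0714 CPM (SD, n = 8).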
